A study of Mus musculus with 27 samples.

Results

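Tight junctions were followed here through 9 genes, Cldn1, Cldn3, Cldn4, Cldn7, Ocln, Marveld2, F11r, Tjp1 and Tjp3, taken by name from a table of 24454 genes. All 9 were listed and all 9 passed the filter on low values. The RNA came from 9 tumour cell lines of MMTV-PyMT mice, which carry polyoma middle T under control of the mammary tumour virus promoter in an FVB/N background, and each line was measured without cytokine, with Wnt3a (100 ng/ml for 3 days) and with TGFβ (2 ng/ml for 4 days). Cultures without cytokine carry a labelled time of 4 days, so a Wnt3a change sets cultures of different labelled time side by side, and the cytokine and the time cannot be told apart in it. Both Bcl9 and Bcl9L, the adaptors that join β-catenin to Pygopus, carried a mutant allele in every line. It lacked either the Pygopus-binding domain (ΔHD1) or the β-catenin-binding domain (ΔHD2). The other allele was floxed and functional in ΔHD1/fl (2 lines) and ΔHD2/fl (2 lines), and had been removed with a Cre adenovirus in ΔHD1/- (2 lines) and ΔHD2/- (3 lines), so that all groups shared the oncogene and a mutant allele and none was wild type. Tumours grew in thoracic mammary glands, and fibroblasts had been removed from the cultures by differential trypsinisation. Per the labels, replicates of a genotype were lines from 2 different mice. The labels do not give the mouse of each line, or say whether a recombined line and a fl line come from the same tumour. The 12 groups of 2 or 3 libraries add up to 27.

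Tight junctions seal the space between neighbouring epithelial cells and separate the apical from the basolateral membrane. Claudins are the membrane proteins that form the sealing strands and set which ions pass. Occludin (Ocln) and tricellulin (Marveld2) are MARVEL-domain proteins of the same strands, tricellulin being placed where 3 cells meet. F11r encodes junctional adhesion molecule A, and Tjp1 and Tjp3 encode the scaffolds ZO-1 and ZO-3, which tie the strands to actin. During an epithelial-mesenchymal transition (EMT), which TGFβ induces in many epithelial cells, these contacts are taken apart, and repressors of the Snail and Zeb families are known to act on junction genes through E-boxes.

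Levels are in CPM, counts per 1000000 reads of a library. Libraries held 21864011 to 33692360 reads. A count of 0 allows up to 3 reads, worth 0.089 to 0.137 CPM. Bcl9 lay between 32.4 and 104 CPM and Bcl9l between 70.7 and 346 CPM over the 27 libraries, but totals per gene do not separate mutant from floxed alleles and so check no label. In 7 lines the untreated level of the epithelial gene Cdh1 was 606 to 1145 CPM and that of Epcam 263 to 910 CPM. In ΔHD1/fl line 2 and ΔHD1/- line 2 Cdh1 was at 0.522 and 0.237 CPM and Epcam at 0.0746 and 0 CPM, so Cdh1 was very low there, though above the level of 3 reads, and Epcam was under that level. The 2 lines were not alike over 5 epithelial markers. In ΔHD1/fl line 2, 0 of the 5 reached 1 CPM, with a sum of 1.31 CPM. In ΔHD1/- line 2, 2 of the 5 did, with a sum of 1091 CPM. Of 6 fibroblast markers these 2 lines held 4 and 5 at 1 CPM or more, but ΔHD1/- line 1 also held 4 and ΔHD2/fl line 1 also held 5. The lines differed in the sums, which were 2041 and 5430 CPM in the ΔHD1 lines 2 and 1.05 to 217 CPM in the other lines. The part of these markers in the results below was not tested. In the ΔHD1 lines 2, Thy1 was at 0 in both and Dcn at 0.858 and 1.51 CPM. Of 5 leukocyte markers 1 or 2 reached 1 CPM in any untreated library, with Ptprc at 0 in 8 of 9. Within a treatment, ΔHD2/- line 2 and ΔHD2/- line 3 correlated at 0.997 to 0.999 over all genes, although they differed by more than counting noise. The TGFβ means of Cldn7, Ocln, Marveld2 and F11r and some counts are also given without the ΔHD1 lines 2. Some results that rest on ΔHD2/- lines are given without single lines or with lines 2 and 3 averaged. In bulk RNA, fewer cells of a kind and less RNA per cell cannot be told apart.

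The 9 genes lie on 7 chromosomes of the GRCm38 assembly, which is also called mm10. Cldn4 (chromosome 5, 134945123 to 134946934) and Cldn3 (chromosome 5, 134986214 to 134987476) are neighbours 39.3 kb apart on opposite strands. Ocln (chromosome 13, 100496504 to 100552718) and Marveld2 (chromosome 13, 100595957 to 100616971) lie 43.2 kb apart on the same strand. The remaining genes are Cldn1 (chromosome 16, 26356645 to 26371839), Cldn7 (chromosome 11, 69964779 to 69967886), F11r (chromosome 1, 171437561 to 171464593), Tjp1 (chromosome 7, 65296165 to 65527850) and Tjp3 (chromosome 10, 81273188 to 81291581). Cldn3 and Tjp3 overlap genes on the opposite strand, Wbscr25 and Apba3, by 44 and 60 bases. Whether the counting used strand is not given in the sources used here, so reads in those bases cannot be assigned. The small RNA genes LOC115488221 (144 bases) and Gm24261 (104 bases) lie inside Ocln and Marveld2, outside their annotated exons.

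The promoter sequences of the 5 genes called under TGFβ in the fit blocked by cell line are shown because these genes moved together or against each other within the same lines. Each runs 5′ to 3′ from 250 bases before to 30 bases after the annotated start (RefSeq, GRCm38.p6), and capitals mark the E-box CAGGTG or its reverse complement CACCTG.
Cldn1 promoter, chr16:26371810-26372089, minus strand: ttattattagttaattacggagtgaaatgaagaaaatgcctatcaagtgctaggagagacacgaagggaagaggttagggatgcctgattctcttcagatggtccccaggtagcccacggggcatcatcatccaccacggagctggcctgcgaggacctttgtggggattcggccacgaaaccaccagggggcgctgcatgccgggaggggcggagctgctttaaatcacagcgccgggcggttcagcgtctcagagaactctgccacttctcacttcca
Cldn4 promoter, chr5:134946905-134947184, minus strand: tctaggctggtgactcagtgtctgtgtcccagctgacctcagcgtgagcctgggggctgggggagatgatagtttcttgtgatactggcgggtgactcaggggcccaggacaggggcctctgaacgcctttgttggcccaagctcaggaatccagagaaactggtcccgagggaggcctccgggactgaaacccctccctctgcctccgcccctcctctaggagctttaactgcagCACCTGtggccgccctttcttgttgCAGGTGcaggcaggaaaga
Ocln promoter, chr13:100552689-100552968, minus strand: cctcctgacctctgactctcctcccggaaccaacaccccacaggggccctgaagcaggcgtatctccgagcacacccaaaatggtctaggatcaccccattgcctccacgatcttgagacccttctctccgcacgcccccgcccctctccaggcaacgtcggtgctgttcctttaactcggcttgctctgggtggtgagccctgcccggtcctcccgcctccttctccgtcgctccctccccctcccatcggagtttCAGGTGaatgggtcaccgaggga
Marveld2 promoter, chr13:100616915-100617194, minus strand: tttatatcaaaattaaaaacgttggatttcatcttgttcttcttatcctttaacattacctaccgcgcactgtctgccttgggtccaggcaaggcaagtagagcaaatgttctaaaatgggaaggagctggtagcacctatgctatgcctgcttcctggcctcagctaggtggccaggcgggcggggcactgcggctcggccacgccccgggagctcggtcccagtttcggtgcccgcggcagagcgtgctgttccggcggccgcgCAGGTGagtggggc
Tjp3 promoter, chr10:81291552-81291831, minus strand: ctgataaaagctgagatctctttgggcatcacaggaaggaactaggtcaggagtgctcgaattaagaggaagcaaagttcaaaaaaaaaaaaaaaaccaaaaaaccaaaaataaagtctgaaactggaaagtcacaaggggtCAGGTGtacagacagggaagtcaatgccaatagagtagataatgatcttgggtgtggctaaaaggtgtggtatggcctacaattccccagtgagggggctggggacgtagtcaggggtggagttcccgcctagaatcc
In windows of 300 bases (250 before and 50 after the start) an E-box was present for 7 of the 9 genes, Cldn3, Cldn4, Cldn7, Ocln, Marveld2, F11r and Tjp3, and absent from those of Cldn1 and Tjp1. The 1 window of Tjp1 belongs to a start 157 kb inside the gene, and its outer start was not searched. Among all 27025 genes with a window 22.6% held one. Cldn4 had an E-box on each strand, 14 bases before and 12 bases after its start, and Ocln one beginning 8 bases after. Cldn7, Ocln, Marveld2 and Tjp3 have 2 annotated windows each, and in Cldn7 only that of the inner start held the motif. The letters CTTTGA of TCF sites, on either strand, were in none of the 13 windows of the 9 genes, against those of 18.2% of all genes. AACNGGTT or AACCNGTT, sought for Grainyhead factors, was in none either, against 2.35%. CAGACA, found in SMAD sites, was in windows of 3 genes, Cldn4, Marveld2 and Tjp3, and in 23.6% of all genes. These matches describe letters only. The genes that fell and the gene that rose under TGFβ both included members with the E-box, and Cldn1 fell without one in its window.

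Without cytokine, the lines differed in which tight junction genes they expressed. All 9 genes were at 1 CPM or more in ΔHD1/- line 1, both ΔHD2/fl lines and ΔHD2/- line 1. ΔHD1/fl line 1 lacked Cldn7 at 0.0915 CPM and had Cldn1 and Tjp3 below 1 CPM. In ΔHD1/fl line 2 and ΔHD1/- line 2, the lines with almost no Cdh1, 3 genes remained at 1 CPM or more, Cldn1, F11r and Tjp1. ΔHD2/- lines 2 and 3 kept Cdh1 at 682 and 712 CPM but held 5 of the 9 genes at 1 CPM or more. The pattern of absence was thus not the same in the lines with and without Cdh1.

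**Figure D1:**
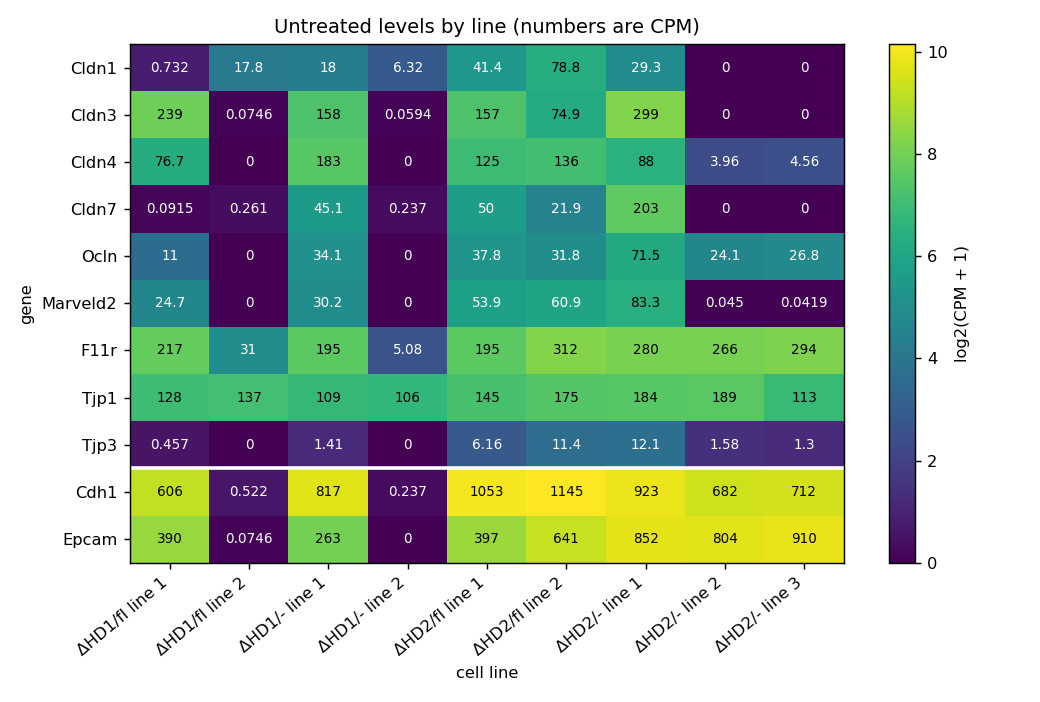
Heat map of untreated levels, with genes in rows and the 9 lines in columns. Colour gives log2(CPM + 1) and each cell prints the CPM, with Cdh1 and Epcam below the white line as epithelial reference. ΔHD1 lines 2 are dark for most rows, whereas ΔHD2/- lines 2 and 3 are dark for Cldn1, Cldn3, Cldn7 and Marveld2 and bright for F11r, Tjp1, Cdh1 and Epcam.

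The claudins followed separate patterns. Cldn3, a barrier-forming claudin of simple epithelia, was at 74.9 to 299 CPM in 5 lines and at 0 to 0.0746 CPM in the other 4, with nothing between. Cldn7, which also lies along the lateral membrane, was at 45.1 CPM in ΔHD1/- line 1, 49.95 and 21.9 CPM in the ΔHD2/fl lines and 203 CPM in ΔHD2/- line 1, and at most 0.261 CPM elsewhere. Cldn4 was at 76.7 to 183 CPM in the same 5 lines as Cldn3, at 3.96 and 4.56 CPM in ΔHD2/- lines 2 and 3, and at 0 in both ΔHD1 lines 2. Cldn3 and Cldn4, the chromosome 5 neighbours, were therefore high in the same lines and low in the same lines. Cldn1, which is required for the barrier of stratified epithelia, followed another order. It was highest in the ΔHD2/fl lines at 41.4 and 78.8 CPM, at 17.8 and 6.32 CPM in the Cdh1-low ΔHD1/fl line 2 and ΔHD1/- line 2, and at 0.732 CPM in the Cdh1-high ΔHD1/fl line 1. In ΔHD2/- lines it was at 29.3, 0 and 0 CPM. By group, untreated Cldn1 averaged 9.28 ± 12.1 CPM (SD, n = 2) in ΔHD1/fl, 12.2 ± 8.26 (n = 2) in ΔHD1/-, 60.1 ± 26.5 (n = 2) in ΔHD2/fl and 9.75 ± 16.9 (n = 3) in ΔHD2/- lines.

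The neighbours Ocln and Marveld2 parted in ΔHD2/- lines 2 and 3. Ocln was at 24.1 and 26.8 CPM there, within its range of 11 to 71.5 CPM over the 7 lines with Cdh1. Marveld2 was at 0.045 and 0.0419 CPM in these lines, under the level of 3 reads, and at 24.7 to 83.3 CPM in the 5 lines with Cldn3. Both genes had 0 reads in the ΔHD1 lines 2. F11r and Tjp1 were measured above 1 CPM in all 27 libraries. F11r was at 195 to 312 CPM in 7 untreated lines and at 31 and 5.08 CPM in ΔHD1/fl line 2 and ΔHD1/- line 2. Tjp1 stayed within 106 to 189 CPM, and the ΔHD1 lines 2, at 137 and 106 CPM, did not stand apart. Tjp3 was low throughout, at 0 to 12.1 CPM, with its highest values in the ΔHD2/fl lines (6.16 and 11.4 CPM) and ΔHD2/- line 1.

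Levels of different genes were compared per length of exon. The median over the 9 untreated lines was 81.5 CPM per kb for F11r, 59.5 for Cldn3, 42.3 for Cldn4, 17.6 for Tjp1, 7.29 for Marveld2, 6.35 for Ocln, 3.68 for Cldn1, 0.38 for Tjp3 and 0.134 for Cldn7. The ranges over lines of all neighbours in this order overlapped, so the steps between neighbours were not larger than the spread between lines. Genes further apart could be separate, with Tjp1 at 13.6 CPM per kb or more and Tjp3 at 3.25 or less. Cldn7 shows the spread best, since its median was the lowest and its highest line reached 104 CPM per kb.

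The recombined lines were compared with the fl lines to ask what the loss of the remaining functional allele changes. No member was called in either family under any treatment by limma at an adjusted p of at most 0.05 and a 2-fold change. Called genes were 0.0678%, 0.0452% and 0.0301% of the 13270 tested in the ΔHD1 family without cytokine, with Wnt3a and with TGFβ, and 0.55%, 0.686% and 0.354% in the ΔHD2 family. At an unadjusted p under 0.05 the counts among the 9 genes were 0, 0 and 0 for ΔHD1 and 1, 1 and 0 for ΔHD2, the gene being Cldn1. Of all genes 4.85%, 5.86% and 8.22% passed in the ΔHD1 family and 8.61%, 8.64% and 7.98% in the ΔHD2 family. The test by edgeR on recovered reads called 0 in all 6 comparisons. In untreated ΔHD2 lines Cldn1 was at 41.4 and 78.8 CPM with the floxed allele and at 29.3, 0 and 0 CPM without it. The difference was -4.22 ± 1.37 (SE) on the log2(CPM + 1) scale, with a limma adjusted p of 0.326. Marveld2 differed by -3.69 ± 2.33 (adjusted p 0.696), with ΔHD2/- line 1 above both ΔHD2/fl lines and lines 2 and 3 near 0. Cldn7 differed by -2.54 ± 2.61 (SE; adjusted p 0.839), and edgeR gave 0.92, the opposite sign.

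The ΔHD2 comparison rested on ΔHD2/- line 1. Without this line, and with lines 2 and 3 left as the whole ΔHD2/- group, Cldn1, Cldn7 and Tjp3 were called lower without cytokine, where 3.8% of all genes tested were called lower. Their log2 differences were then -5.86 ± 0.91 (SE; limma adjusted p 0.00123), -5.09 ± 1.38 (adjusted p 0.0395) and -1.95 ± 0.50 (adjusted p 0.0287). Cldn1 was also called lower with Wnt3a (adjusted p 0.00869, background 3.65%), and 0 members were called with TGFβ (background 2.53%), where 3 had an unadjusted p under 0.05, as did 17.5% of all genes. Called in either direction were 5.67%, 5.17% and 3.37% of all genes without cytokine, with Wnt3a and with TGFβ. That lines 2 and 3 are independent replicates was not shown. In the ΔHD1 family the log2 differences of the 9 genes without cytokine lay between -1.27 and 2.69, all with adjusted p of 1.

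TGFβ was applied to induce EMT. Within lines, Cldn1, Ocln, Marveld2 and Tjp3 fell and Cldn4 rose, and F11r was higher in every line by less than the 2-fold limit on average. The main fit, which sets treated against untreated groups without pairing libraries of a line, called 0 genes higher and 1 lower, Tjp3, against 1.86% of all genes called higher and 3.56% called lower. In the fit blocked by cell line 1 member was called higher and 4 lower, against 3.02% and 5.9% of all genes. Libraries of a cell line come from the same cells and deviated together from their group means, which is why the paired values are given beside the unpaired ones. The median log2 change of the 9 genes was -0.72, beside -0.16 over all genes. Under median-of-ratios scaling the median of all genes was -0.02, and changes given here are to be read against the former value.

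Markers of epithelial and of other cell types also moved with TGFβ. The 5 epithelial markers summed to 1.31 to 4668 CPM without cytokine and to 5.75 to 6387 CPM with TGFβ, lower in 3 of 9 lines. None was called without pairing, and Cdh1 was called lower with the block. The keratin genes Krt18 and Krt8 had log2 changes of 0.903 and 0.645 (limma adjusted p 0.0152 and 0.0797 with the block), under the 2-fold limit. The 5 basal or myoepithelial markers summed to 303 to 15663 CPM without cytokine and to 86.5 to 2955 CPM with TGFβ, lower in 8 of 9 lines and higher in ΔHD1/- line 2. Of the 4 that were tested 1 was called lower without pairing, Trp63, and with the block 3 were called lower (Krt5, Krt14 and Trp63) and Acta2, smooth muscle actin, higher, with a median log2 change of -2.10 over the 4. Myh11 stayed under 1 CPM in every library of both treatments. Of 5 endothelial markers, which summed to at most 2.07 and 6.55 CPM, 2 were tested. Cdh5 was called higher in both fits, and Pecam1 had a log2 change of -0.37 (limma adjusted p 0.0204 with the block), under the 2-fold limit. Tie1 was at 0 in 9 untreated and 8 treated lines. Among 6 fibroblast markers 0 were called without pairing and Col1a1 higher with the block, with summed levels of 1.05 to 5430 CPM and 3.77 to 4515 CPM. Not called in either fit were Col1a2 (log2 change 0.85), Dcn (0.10), Thy1 (-0.01), Pdgfrb (-0.26) and Pdgfra (-0.52). The 5 leukocyte markers summed to 2.11 to 17.7 CPM and 1.47 to 8.96 CPM, and the 1 tested was not called. The part of these markers in the changes of the 9 genes was not tested.

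**Figure D2:**
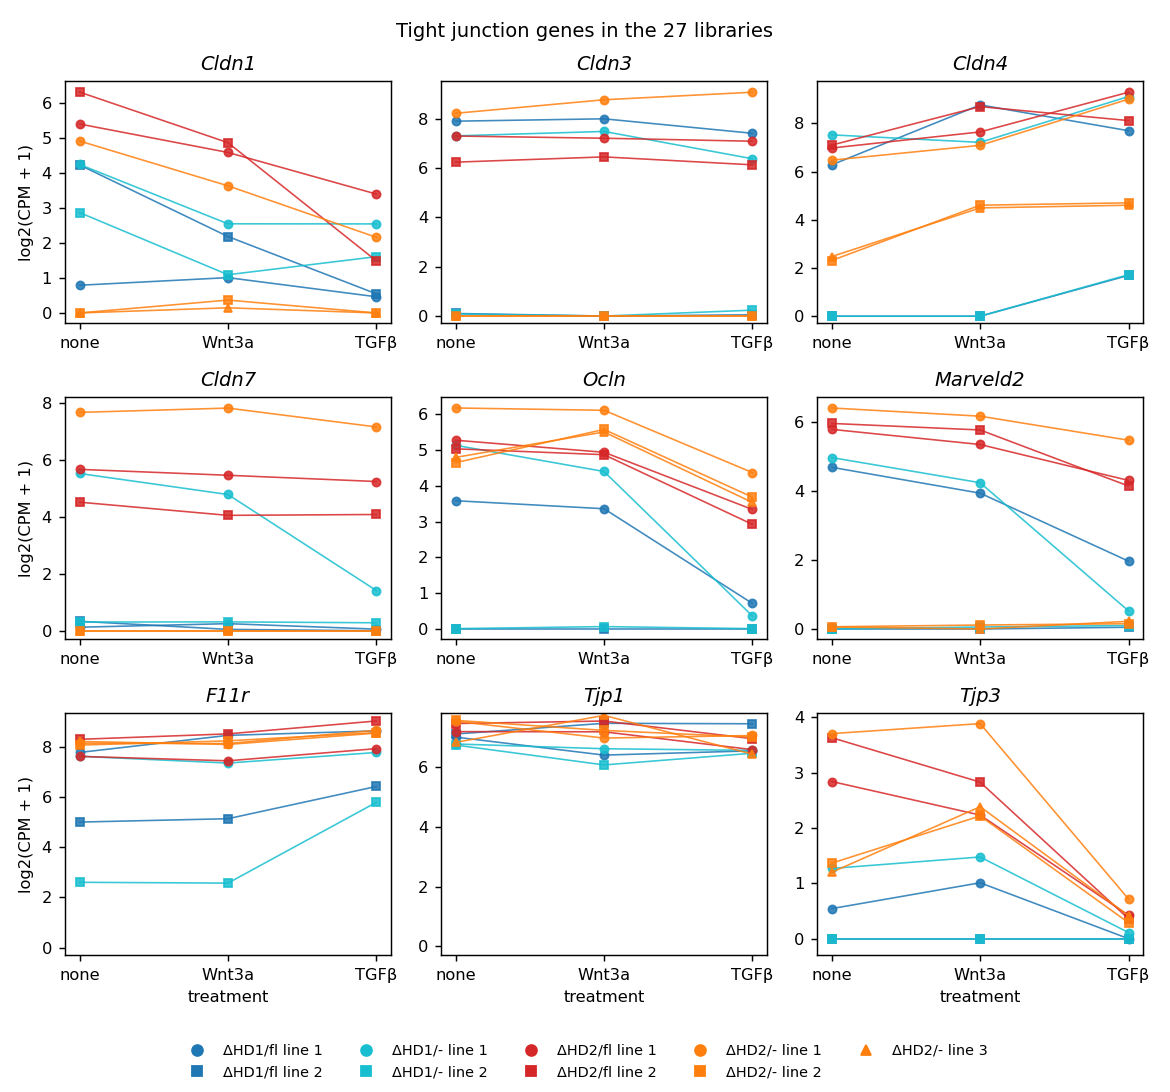
Levels of the 9 genes in all 27 libraries, 1 panel a gene. The vertical axis is log2(CPM + 1), the horizontal axis the treatment, and each line joins the 3 libraries of a cell line, coloured by genotype. Cldn4 and F11r end higher with TGFβ in all 9 lines, Ocln and Tjp3 end lower in the 7 lines in which either library held reads, and Tjp1 ends lower in 8 of 9 lines by less than 2-fold, with ΔHD1/- line 1 turning sign under median-of-ratios scaling.

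Cldn1 was at 0 to 78.8 CPM (median 17.8) without cytokine and at 0 to 9.56 CPM (median 1.81) with TGFβ. It was lower in all 7 lines with any reads and at 0 in both libraries of ΔHD2/- lines 2 and 3. In ΔHD2/fl line 2 it went from 78.8 to 1.81 CPM, and in ΔHD1/fl line 2, a line with almost no Cdh1, from 17.8 to 0.462 CPM. Its mean log2 change was -1.96 ± 0.72 (SE; limma adjusted p 0.0704) without pairing and -1.96 ± 0.38 (adjusted p 0.00134) when blocked by line.

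Cldn4 moved the other way. It was at 0 to 183 CPM (median 76.7) without cytokine and at 2.24 to 627 CPM (median 206) with TGFβ, higher in 9 of 9 lines, where 5.41% of all genes were. The rise was 2.03-fold to 6.33-fold in the 7 lines with reads in both libraries. In ΔHD1/fl line 2 and ΔHD1/- line 2 it went from 0 to 2.24 and 2.30 CPM, at least 20-fold and 25.9-fold higher against 3 reads in the untreated library. The mean log2 change was 1.81 ± 1.58 (SE; limma adjusted p 0.466) without pairing and 1.81 ± 0.30 (adjusted p 0.000478) with the block. Cldn4 was thus also higher in the 2 lines with almost no Cdh1, where Cldn3 did not exceed 0.18 CPM in any library.

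Cldn3, its chromosomal neighbour, did not move with it. Cldn3 was lower with TGFβ in 4 of the 5 lines that expressed it (1 CPM or more in either library), by at most 0.93 on the log2 scale, and higher in ΔHD2/- line 1, from 299 to 542 CPM. Its mean log2 change was -0.13 ± 0.14 (SE; limma adjusted p 0.445) with the block, and in the ΔHD2/fl lines its changes of -0.21 and -0.11 turned to 0.01 and 0.06 under median-of-ratios scaling. Cldn7 was lower in all 4 lines that expressed it. In 3 of these it kept 0.7003 to 0.739 of its level, and in ΔHD1/- line 1 it went from 45.1 to 1.67 CPM. Its mean change of -0.72 ± 0.31 (SE; limma adjusted p 0.0728 with the block) was not called. This rested on single lines, since with the block the mean was -0.21 without ΔHD1/- line 1. It was -1.23 and called without ΔHD1/- line 2, -1.19 and called without both ΔHD1 lines 2 (adjusted p 0.000127), and -1.04 and called with a pseudocount of 0.1 (adjusted p 0.0381).

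Ocln was lower in all 7 lines that expressed it, and so was Marveld2 in all 5. Ocln went from 34.1 to 0.278 CPM in ΔHD1/- line 1, from 37.8 to 9.11 and 31.8 to 6.57 CPM in the ΔHD2/fl lines, and from 71.5, 24.1 and 26.8 to 19.7, 11.8 and 10.6 CPM in the ΔHD2/- lines. Its mean log2 change was -1.80 ± 0.71 (SE; limma adjusted p 0.0894) without pairing and -1.80 ± 0.42 (adjusted p 0.00409) with the block. With the 2 ΔHD1 lines that had 0 reads of Ocln left out, the change was -2.76 and was called also without the block (adjusted p 0.000113). The change was smallest, -1.20, when ΔHD1/- line 1 was omitted, with a limma adjusted p of 0.17 unpaired and 0.00856 paired. Marveld2 went from 30.2 to 0.437 CPM in ΔHD1/- line 1 and from 24.7 to 2.9 CPM in ΔHD1/fl line 1. In ΔHD2/fl lines it kept 0.347 and 0.273 of its level and in ΔHD2/- line 1 it kept 0.518. Its mean log2 change was -1.34 ± 1.22 (SE; adjusted p 0.487) without pairing and -1.34 ± 0.40 (adjusted p 0.015) with the block. Without ΔHD1/- line 1 (-0.78) or ΔHD1/fl line 1 (-0.998, adjusted p 0.0845) that call was lost. Without ΔHD1/- line 2 the change was -1.91 (adjusted p 0.000449 with the block), and with both ΔHD1 lines 2 left out, which had 0 reads of Marveld2 without cytokine, it was -2.26 (adjusted p 2.73e-05). The call was lost too when ΔHD2/fl line 2 was left out and with a pseudocount of 0.1 (limma adjusted p 0.0691). The change itself was -1.30 and -1.34 in these fits, beside -1.34 with all lines.

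The fall of both MARVEL genes was steepest in ΔHD1/- line 1, the line in which Cldn7 also went from 45.1 to 1.67 CPM. Cldn4 rose there from 183 to 554 CPM, and F11r was at 195 and 217 CPM. Of the epithelial markers, Cdh1 and Epcam were lower in this line too, Cdh1 at 817 CPM without cytokine and 4.29 CPM with TGFβ and Epcam at 263 and 12.5 CPM. Over all lines the log2 change of Cdh1 was -1.53 ± 0.59 (SE; limma adjusted p 0.0481 with the block, 0.552 without). Epcam changed by -0.72 (adjusted p 0.103 with the block, 0.782 without) and was higher with TGFβ in ΔHD2/fl line 2, at 641 and 777 CPM, and in ΔHD2/- lines 2 and 3. The fibroblast markers of that line summed to 217 CPM without cytokine and 66.7 CPM with TGFβ, and their part in these values was not tested.

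Tjp3 was the only member called without pairing. It was at 6.16 and 11.4 CPM in untreated ΔHD2/fl lines and at 0.34 and 0.284 CPM with TGFβ, and in ΔHD2/- lines it went from 12.1, 1.58 and 1.3 to 0.643, 0.222 and 0.333 CPM. No line held more than 0.643 CPM after TGFβ. The mean log2 change was -1.33 ± 0.35 (SE; limma adjusted p 0.0159) without pairing and -1.33 ± 0.22 (adjusted p 0.000452) with the block, and with edgeR it was -4.34 (adjusted p 0.031). The unpaired call was lost when line 1 of ΔHD1/-, ΔHD1/fl or ΔHD2/fl, or line 2 of ΔHD2/fl, was left out (adjusted p 0.0522 to 0.0929), and the paired one was kept in each of these.

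Its relative Tjp1, the main scaffold, was lower in 8 of 9 lines by 0.21 to 0.60 on the log2 scale and higher in ΔHD1/fl line 2, and under median-of-ratios scaling ΔHD1/- line 1 turned from -0.21 to 0.03. The mean change of -0.33 ± 0.15 (SE; adjusted p 0.0804 with the block) was not called. F11r was at 5.08 to 312 CPM (median 217) without cytokine and at 54 to 518 CPM (median 370) with TGFβ, higher in 9 of 9 lines. Most lines were 1.11-fold to 1.82-fold higher, and the largest changes were in the Cdh1-low lines, from 31 to 84.3 CPM in ΔHD1/fl line 2 and from 5.08 to 54 CPM in ΔHD1/- line 2. The mean log2 change of 0.94 ± 0.25 (SE; adjusted p 0.00766 with the block) was under the limit of 1. It passed that limit under median-of-ratios scaling (1.11), without ΔHD1/- line 1 (1.32) and without ΔHD1/fl line 1 (1.01), and was 0.49 without both ΔHD1 lines 2. None of the 9 genes was lower in all 9 lines, where 15.7% of all genes were. Only F11r and Tjp1 had untreated reads in every line, so the other members could not be lower in all 9, and the count says nothing about them.

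**Figure D3:**
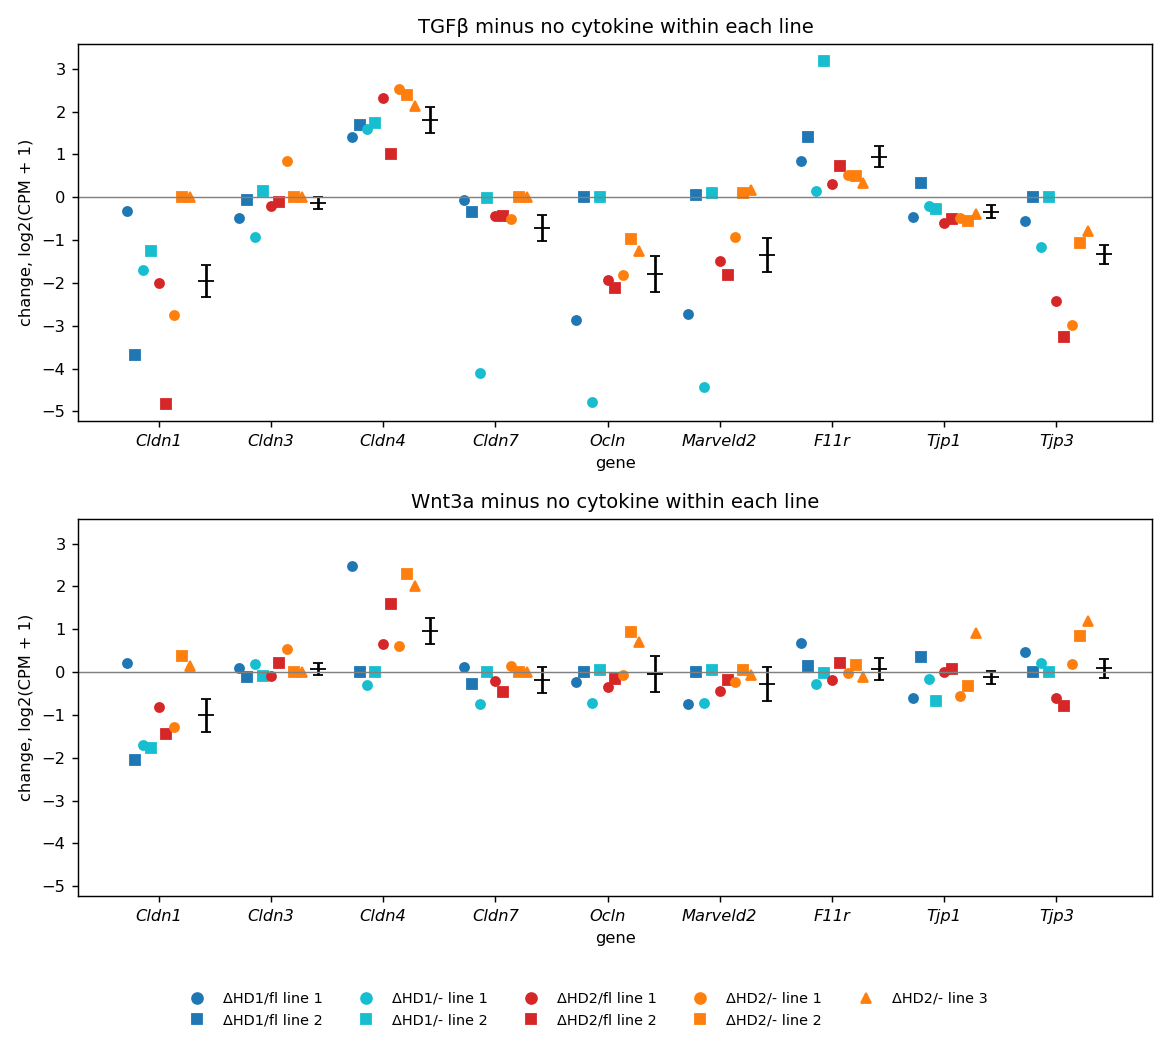
Change of each gene within each cell line, on the log2(CPM + 1) scale, with TGFβ above and Wnt3a below. Coloured points are single lines and the black mark is the mean over genotypes ± SE from the fit blocked by cell line. With TGFβ all points of Cldn4 and F11r lie above 0 and those of Cldn1, Ocln and Tjp3 at or under 0, whereas with Wnt3a most genes scatter around 0.

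Within single genotypes no member was called without pairing, beside 0.211%, 1.43%, 0.286% and 0.806% of all genes in ΔHD1/fl, ΔHD1/-, ΔHD2/fl and ΔHD2/- lines. At an unadjusted p under 0.05 there were 0, 0, 2 and 1 members, beside 9.5%, 13.4%, 8.71% and 10.8% of all genes, and edgeR called 0 in each. With the block the shares of all genes were 5.42%, 9.33%, 5.24% and 6.03%. In ΔHD1/- lines Cldn7 was then called lower (adjusted p 0.0405) and F11r higher (adjusted p 0.0389), each resting on 1 line, since without ΔHD1/- line 1 Cldn7 changed by -0.03 and without line 2 F11r changed by 0.15. In ΔHD2/fl lines Cldn1 (adjusted p 0.0212) and Tjp3 (adjusted p 0.00392) were called lower, and in ΔHD2/- lines Tjp3 lower (adjusted p 0.0129) and Cldn4 higher (adjusted p 0.00969). Each of these calls was lost when some line of its own genotype was left out. Without ΔHD2/fl line 1 or line 2, Tjp3 changed by -3.27 and -2.42 (adjusted p 0.0535 and 0.192) and Cldn1 by -4.83 and -2.004 (adjusted p 0.0601 and 0.482), but these fits rest on 1 ΔHD2/fl line, which is assumed to vary like the other groups. In ΔHD2/- lines Cldn4 changed by 2.33 and 2.46 without line 2 and line 3 (adjusted p 0.0773 and 0.0674), and Tjp3 by -0.93 and -1.89 without line 1 and line 2 (adjusted p 0.0987 and 0.055). None was called in ΔHD1/fl lines (3 at an unadjusted p under 0.05, as were 27.6% of all genes). An interaction term asked whether recombined lines responded differently from fl lines, and 0 members were called for TGFβ or Wnt3a in either family, with 0 at an unadjusted p under 0.05 and 0 by edgeR. With the block 0 were called and 2 of these 36 values had an unadjusted p under 0.05, Cldn1 for TGFβ and Tjp3 for Wnt3a, both in the ΔHD2 family, where 8.79% and 2.82% of all genes passed for these responses. All genes called made up 0.00754% and 0% in the ΔHD1 family and 0.0301% and 0.0151% in the ΔHD2 family. The ΔHD2 difference in the TGFβ change of Cldn1 was 2.50 ± 1.94 (SE; adjusted p 1), and 2 of the ΔHD2/- lines had 0 reads of Cldn1 with and without TGFβ.

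Wnt3a was used to activate the canonical Wnt pathway. It called 0 of the 9 genes, without the block (0.0226% of all genes, 0 members at an unadjusted p under 0.05) or with it (0.241%), and edgeR called 0. With the block Cldn1 and Cldn4 had an unadjusted p under 0.05, as did 17.3% of all genes. By genotype 0 members were called in ΔHD1/fl (0.0151% of all genes), ΔHD1/- (0.00754%), ΔHD2/fl (0.113%) and ΔHD2/- lines (0.00754%), with 0 at an unadjusted p under 0.05 and 0 by edgeR in each. With the block 0 were called, and at an unadjusted p under 0.05 there was 1 in ΔHD1/- (Cldn1) and 1 in ΔHD2/- lines (Cldn4), beside 1.67% and 5.49% of all genes. The median log2 change of the 9 genes was -0.04, beside -0.06 over all genes. None was higher or lower in all 9 lines, where 1.73% and 3.22% of all genes were, but only F11r and Tjp1 had untreated reads in every line and could have been lower in all.

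Cldn1 and Cldn4 had the largest Wnt3a changes. Cldn1 was lower in 6 of the 7 lines with at least 1 CPM in either library, for example from 17.8 to 3.55 CPM in ΔHD1/fl line 2 and from 78.8 to 28.3 CPM in ΔHD2/fl line 2. Its mean log2 change was -1.01 ± 0.38 (SE; limma adjusted p 0.226 with the block). Cldn4 went from 76.7 to 435 CPM in ΔHD1/fl line 1, from 136 to 414 CPM in ΔHD2/fl line 2 and from 3.96 and 4.56 to 23.4 and 21.5 CPM in ΔHD2/- lines 2 and 3. It was at 183 and 147 CPM in ΔHD1/- line 1 and at 0 in both libraries of the ΔHD1 lines 2. The mean was 0.97 ± 0.30 (SE; adjusted p 0.165 with the block), and without ΔHD1/fl line 2 it was 1.28 and called with the block. In ΔHD1/fl line 1 its level with Wnt3a, 435 CPM, stood beside 206 CPM with TGFβ, and in ΔHD2/- lines 2 and 3 beside 25.1 and 23.3 CPM.

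Ocln under Wnt3a was higher in ΔHD2/- lines 2 and 3, from 24.1 and 26.8 to 46.8 and 44.5 CPM, and lower or near its untreated level in the other lines that expressed it. Marveld2 was lower in all 5 lines that expressed it, by 0.19 to 0.75 on the log2 scale, with a mean of -0.28 ± 0.40 (SE; adjusted p 0.772 with the block). Tjp3 was lower in both ΔHD2/fl lines, from 6.16 to 3.7 and 11.4 to 6.11 CPM, and higher in the 3 ΔHD2/- lines, from 12.1, 1.58 and 1.3 to 13.8, 3.65 and 4.22 CPM. Tjp1 in ΔHD2/- line 3 went from 113 to 212 CPM and in line 2 from 189 to 149 CPM, although these lines were alike in most genes. F11r was within 0.27 of its untreated level on the log2 scale in 8 lines, and 0.68 higher in ΔHD1/fl line 1.

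The other genes of the junction were read from lists set beside the members. Of all genes 1.86% were called higher and 3.56% lower under TGFβ without the block, and 3.02% and 5.9% with it. Of 17 other claudins listed, 5 passed the filter, 0 were called under TGFβ with or without the block, and their median log2 change was -0.32. Cldn12, the most abundant of them at 36.5 to 71.1 CPM untreated, was higher in 9 of 9 lines with a log2 change of 0.58 ± 0.19 (SE; limma adjusted p 0.0467), under the 2-fold limit. Cldn23 (-0.32) and Cldn9 (-0.41) reached at most 10.5 and 13.0 CPM untreated. Of 8 other junction membrane proteins tested 0 were called without the block and 1 higher and 3 lower with it, at a median of -0.18. Jam2, a junctional adhesion molecule, was the higher one (1.496), and Crb3, a polarity protein (-1.46), and the MARVEL protein Marveld3 (-1.30) were lower. Ildr1, an angulin that recruits tricellulin, was also lower at -1.08 ± 0.39 (SE; adjusted p 0.0375 with the block). Lsr, also an angulin, at -0.30, and the adhesion receptor Cxadr, at -0.06, were not called.

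Of 21 cytoplasmic plaque and polarity proteins 1 was called higher and 1 lower without the block, and 2 and 1 with it, at a median of -0.09. The scaffold Magi2 fell by 1.38 on the log2 scale (limma adjusted p 0.0049; lower in 9 of 9 lines), and the angiomotin Amotl2 rose by 1.01 ± 0.25 (SE; adjusted p 0.0116; higher in 9 of 9). The abundant Ybx3 (-0.18), Amotl1 (0.48) and Arhgef2 (0.26) stayed under the 2-fold limit. Of 18 adherens junction and desmosome genes 0 were called higher and 1 lower, Perp, a desmosomal protein, at -1.38 ± 0.24 (SE; limma adjusted p 0.00102; lower in 8 of 9 lines). With the block 1 was higher and 3 lower, at a median of -0.21. Ctnnb1, which encodes β-catenin, at -0.42, Ctnna1 at -0.13 and Jup at 0.06 stayed under the 2-fold limit.

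Regulators known to maintain epithelial genes had the lowest median of these 6 lists, -1.70 over 11 genes. Of these 0 were called higher and 3 lower without the block, beside 1.86% and 3.56% of all genes. With the block 0 were higher and 8 lower, beside 3.02% and 5.9%. Grhl3 fell by 2.46 (limma adjusted p 0.00528), Grhl1 fell by 2.29 (adjusted p 0.0233) and the Ets factor Ehf fell by 2.16 (adjusted p 0.0144; lower in 9 of 9 lines). Klf4 (-1.88 ± 0.26 SE, adjusted p 0.000122), the splicing factor Esrp1 (-1.09, adjusted p 0.0332) and Grhl2 (-1.002, adjusted p 0.0221) were called with the block only. Of 5 EMT repressors 0 were called without the block, and with it 1, Zeb2, was higher. Zeb1 at 0.70 (adjusted p 0.135 with the block) and Snai1 at 0.71 (adjusted p 0.0054, under the 2-fold limit) were each higher in 7 of 9 lines. Twist1 was at -0.40 (limma adjusted p 0.0239 with the block, under the 2-fold limit), lower in 6 of 9 lines and higher in 1. Snai2 was at -0.45 (adjusted p 0.106 with the block). Untreated Zeb1 was at 205 and 134 CPM in the Cdh1-low ΔHD1/fl line 2 and ΔHD1/- line 2, and at 1.31 to 52.9 CPM in the other lines. Under Wnt3a 0 genes of these 6 lists were called, with or without the block. The lists and members were chosen with earlier results of these data known, and their counts are descriptions.

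**Figure D4:**
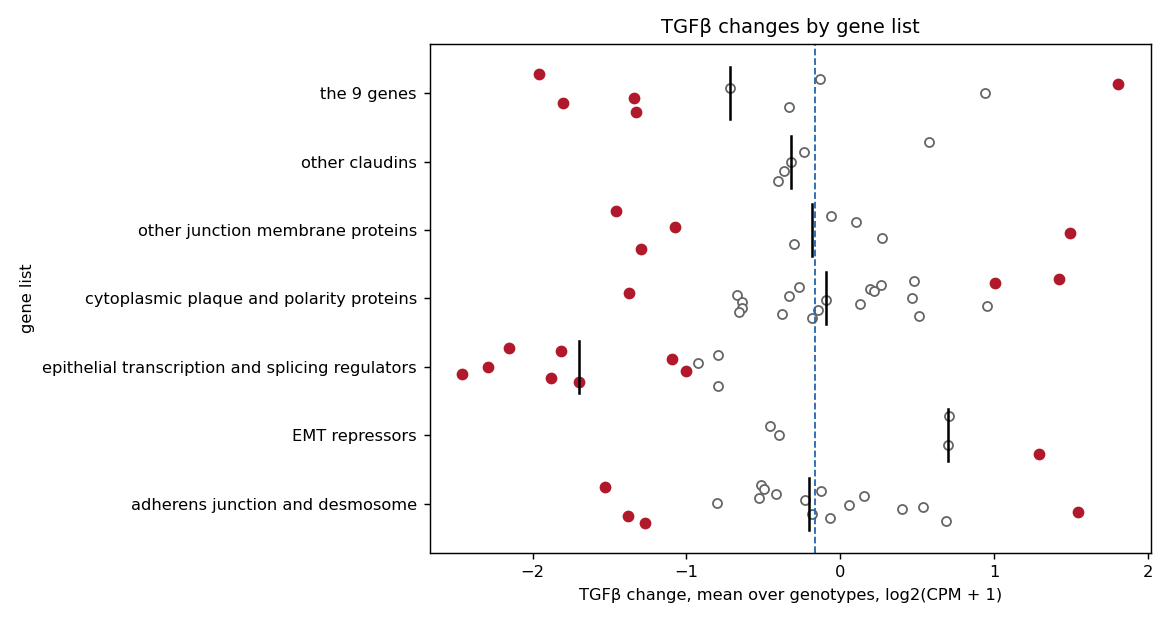
Mean TGFβ change on the log2(CPM + 1) scale for each tested gene of the 7 lists, 1 row a list. Filled red points were called in the fit blocked by line, open points were not, black bars are list medians and the dashed line is the median of all genes at -0.16. The 9 genes have points called on both sides, and the regulators lie wholly under 0.

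Levels of the 9 genes were also set against each other over the 27 libraries, as a description, since libraries of a line share most of their pattern and the values rest on 9 lines. Of 36 pairs 8 had a Pearson correlation over 0.7 and 3 one under 0. Marveld2 and Cldn3 were closest (r = 0.90, Spearman rho 0.77), followed by Cldn7 and Marveld2 (0.87) and Cldn3 and Cldn4 (0.86). Ocln and Marveld2, though neighbours, had r = 0.60, and Ocln was nearer to Tjp3 (r = 0.82, rho 0.945). The correlations of Tjp1 with the others did not exceed 0.52.

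The genes most like each member over these libraries, by Pearson correlation among 13270, were named by rule. Marveld2 was nearest to Large2 (0.99), Bicdl2 (0.95) and Ap1m2 (0.95), and Cldn3 to Ttc9 (0.96), Gdpd3 (0.95) and Trim6 (0.95). For Cldn4 they were Krt7 (0.95), Map3k9 (0.89) and Krt18 (0.89), the first and last being keratins of simple epithelia, and for Cldn7 Tpd52l1 (0.97), Entpd3 (0.93) and Tuba8 (0.92). Ocln was nearest to B4galnt3, Tfcp2l1 and Kdf1 (0.93 each), F11r to Serinc2 (0.98), Wnt7b (0.945) and Traf4 (0.94), and Cldn1 to Rapgef5 (0.87), Car12 (0.85) and P2ry1 (0.85). Tjp1 was nearest to Usf3 (0.91), Creb1 (0.89) and Hnrnpa3 (0.89), and Tjp3 to BC016548 (0.91), Muc15 (0.89) and Gabrp (0.89). By rank the values differed, with Wnt7b at a Spearman rho of 0.72 to F11r and B4galnt3 at 0.77 to Ocln.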

How the data were processed

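RNA from 27 cultures was sequenced by the authors as single reads from stranded poly(A) libraries, aligned to mm10 with STAR (uniquely mapped reads) and counted over RefSeq exons with QuasR. The deposited values are CPM, counts per 1000000 reads, with no further scaling. Every value was a whole multiple of 1 read (tolerance 0.1 reads, 100% of values), which gave depths of 21864011 to 33692360 reads. The limit of 3 reads covers counting error only.

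Of 24454 identifiers 24374 matched a symbol. Genes with at least 1 CPM in 2 or more libraries (13270) were fitted as log2(CPM + 1) with limma 3.58.1 (R 4.3.3, statmod 1.5.0; trend and robust variance) over 12 group means. Changes are on that scale and understate those of low genes. Calls needed a log2 change of 1 or more and p of 0.05 or less after Benjamini-Hochberg adjustment. There were 20 comparisons. The mean response averages the 4 genotypes equally. A cell line has the same number in all treatments, and its libraries correlated in their deviations from group means (r 0.509 to 0.940), so fits with cell line as a block are given beside the main ones. Alternatives were edgeR 4.0.16 on recovered reads, median-of-ratios scaling, omission of the filter, a pseudocount of 0.1, other thresholds, sign-flip permutation, and leaving out lines. Block fits under these settings and the joint omission of 2 lines were added after seeing the data. The fits were tested on simulated data. Named genes were the members, Bcl9, Bcl9l, Cdh1, Epcam, up to 4 called and 3 most abundant genes a list, and the 3 most alike a member. Jam2, Marveld3 and Crb3 fell under the same rule in the block fit only and were chosen after their values were seen, as was Zeb2. Snai2 was named to complete its list. Members and lists were chosen with earlier results of these data known. Replicates were lines, of which 2 ΔHD2/- lines were nearly alike. P-values without the block thus measure the spread between lines that may share an origin. Those with the block measure how much the change within a line varies over such lines. Columns left unused numbered 0.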

Additional observations from a re-analysis of the deposited data

Results flagged for a closer look

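Of the 9 genes, F11r under Wnt3a in the ΔHD1 family and Tjp3 under Wnt3a in the ΔHD2 family were listed by rule, because all fl lines moved one way and all recombined lines the other. The share of all genes with such a split was not counted, so the listing is a description only. F11r changed by 0.407 on average in ΔHD1/fl and by -0.151 in ΔHD1/- lines, a difference of -0.558 ± 2.14 (SE; limma adjusted p 1). The change in ΔHD1/- line 2, -0.03, turned to 0.01 under median-of-ratios scaling. Tjp3 changed by -0.705 in ΔHD2/fl and by 0.739 in ΔHD2/- lines, a difference of 1.44 ± 0.949 (SE; limma adjusted p 1), with an unadjusted p of 0.0314 when cell line was a block. Neither difference passed the correction.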

How the results depend on the processing

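The TGFβ count over genotypes was 1 without pairing (1.86% of all genes called higher and 3.56% lower) and 5 with the replicate block for cell line (3.02% and 5.9%). It was 4 with exact sign-flip permutation over lines (smallest p 0.00391 from 512 patterns) and 3 at an unadjusted p and 1.5-fold. Shares of all genes are not given for these other settings, so their counts have no background beside them. Without the block the count moved when single lines or both ΔHD1 lines 2 were left out. With the block it moved when single lines were. Without both ΔHD1 lines 2, which leaves 1 line in ΔHD1/fl and in ΔHD1/- and assumes that it varies like the other groups, ΔHD1/fl and ΔHD1/- gave 1 each unpaired (2.5% and 2.27% of all genes called), and with the block ΔHD1/fl gave 2 and ΔHD2/fl 4 (12.6% and 7.76%). In ΔHD1/-, ΔHD2/fl and ΔHD2/- lines the block gave 2 each in place of 0. Unadjusted p and 1.5-fold gave 2 in ΔHD2/fl and 1 in ΔHD2/- lines, and 1 for ΔHD2/- against ΔHD2/fl without cytokine and with Wnt3a. Leaving out single lines gave 0 to 1 in ΔHD2/fl, 0 to 3 and 0 to 1 for these ΔHD2 comparisons, and, with the block, 0 to 1 for ΔHD1/fl and for the Wnt3a mean, 0 to 3 for ΔHD1/- and ΔHD2/fl, and 0 to 2 for ΔHD2/- lines. With the block and ΔHD2/- lines 2 and 3 averaged, ΔHD1/- gave 0 and ΔHD2/- 1; a pseudocount of 0.1 gave 1 in each, and median-of-ratios scaling 1 in ΔHD1/- lines. Values near 0 turned sign. The TGFβ mean of Cldn3 was 0.0198 with edgeR, 0.0021 without ΔHD1/- line 1, paired or not, and as low as -0.269 with another line left out. The Wnt3a mean of Cldn3 was -0.0883 with a pseudocount of 0.1. That of Ocln was 0.0066 with a pseudocount of 0.1, 0.015 with median-of-ratios scaling, 0.055 without ΔHD1/- line 1, 0.03 without ΔHD2/- line 1 and 0.0195 as a mean over lines, with a lowest leave-out value of -0.142. Untreated Cldn7 in ΔHD2/- against ΔHD2/fl lines, not near 0 at -2.54 ± 2.61 (SE; adjusted p 0.839), was 0.92 with edgeR. The cause was not tested. In all, 416 counts stayed within 1.5 times of their value and 44 did not. A block of the number shared by fl and recombined lines, whose meaning the labels do not give (r 0.117 to 0.472 in the ΔHD1 and 0.087 to 0.19 in the ΔHD2 family), moved no count past that. Of 162 paired changes 9 turned sign under median-of-ratios scaling, none above 0.224 in size.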
